A study of Mus musculus with 12 samples.

Results

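The genes described here encode the conjugating enzymes of drug and metabolite disposal, namely the UDP-glucuronosyltransferases (Ugt1a, Ugt2a and Ugt2b genes), the glutathione transferases (Gsta, Gstm, Gstp, Gstt, Gsto and Gstk genes, and the membrane-bound Mgst genes) and the sulfotransferases (Sult genes). They were chosen by symbol, with pseudogenes named -ps left out, and by a summed raw count of at least 60 over the 12 libraries. Of the 55471 genes listed, 66 carried such a symbol, and 38 of them reached the count minimum. The members just inside the minimum were Ugt1a2 with 61 reads in all and Ugt2b1 with 66, and the genes just outside it were Sult4a1 with 57 and Gsta5 with 51. A further 15 of the 66 had no read in any library. No Ugt2a gene reached the minimum, the largest sum being the 2 reads of Ugt2a3.

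RNA was sequenced from colonic crypts that had been released with 30 mM EDTA from 8-week-old female C57BL/6J mice, with 1 library per mouse and 3 mice in each of 4 groups. CBPWT p53-floxed mice carried wild-type CBP (the product of Crebbp) and floxed p53 alleles without Cre, and CBPAA p53-floxed mice carried the same p53 alleles with a knock-in of Crebbp that turns a pair of serines phosphorylated by IKKα into alanines. CBPWT p53ΔIEC and CBPAA p53ΔIEC mice carried in addition a Villin-Cre transgene, which deletes p53 in intestinal epithelial cells but not in other cells of the preparation. All 4 groups therefore had floxed p53 alleles, and the knock-in was present in every cell of the CBPAA mice. No group carried Villin-Cre without floxed p53 alleles, so effects of the transgene and of p53 deletion cannot be told apart. The comparisons ask how expression changed with p53 deletion in each CBP genotype, with the CBP mutation in each p53 state, and whether the one depended on the other.

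Conjugating enzymes attach a polar group to a drug, hormone, bile pigment or reactive electrophile and so make it easier to excrete. UDP-glucuronosyltransferases sit in the endoplasmic reticulum and use UDP-glucuronate, soluble glutathione transferases use glutathione in the cytosol, and sulfotransferases take sulfate from the donor PAPS. The intestinal epithelium is a main site of this chemistry outside the liver, and many of its genes are known targets of NRF2, the aryl hydrocarbon receptor and nuclear receptors.

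Library totals ran from 11177430 to 18029125 counted reads. Trp53 lay between 23.3 and 33.5 TPM (a level scaled to gene length and library size) in the 6 p53-floxed libraries and between 3.26 and 6.13 TPM in the 6 p53ΔIEC libraries, so the labels matched the deletion. All 7 colonic epithelium markers on the list passed the expression filter, whereas 2 of 4 liver genes and 1 of 7 stromal genes did. Of 6 leukocyte genes 4 passed. The sum over all 6 was 417 TPM in CBPWT p53ΔIEC replicate 1, 230 TPM in CBPAA p53ΔIEC replicate 3 and lower elsewhere. Some libraries stood apart. The 6 Paneth cell genes on the list (Lyz1, Mmp7, Itln1 and the defensins Defa24, Defa17 and Defa30) summed to 16325 TPM in CBPWT p53ΔIEC replicate 1, 4123 TPM in CBPAA p53ΔIEC replicate 3, 2239 TPM in CBPAA p53ΔIEC replicate 1, 929.8 TPM in CBPAA p53-floxed replicate 2 and at most 261 TPM in the other 8, although Paneth cells are not a normal part of the mouse colonic crypt. Small-intestinal enterocyte genes summed to 5329 and 3600 TPM in CBPWT p53ΔIEC replicate 1 and CBPAA p53ΔIEC replicate 3, and to between 658 and 3038 TPM in the other 10. Results that rest on those 2 libraries are given with and without them, and their part in each result was not tested beyond that. The library names end in a number whose meaning is not stated. That number was higher in 4 of the p53ΔIEC libraries than in any p53-floxed library, so whatever it stands for and the deletion cannot be told apart there.

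The 38 members together took up between 4189 and 6022 TPM of each library. Glutathione transferases of the soluble kind held 1539 to 2404 TPM, sulfotransferases 1292 to 1892 TPM, UDP-glucuronosyltransferases 695 to 938 TPM and the membrane-bound Mgst enzymes 636 to 966 TPM. Levels between members differed by over 3 orders of magnitude on the TPM scale. At the top stood Sult1a1, the main phenol sulfotransferase, with a mean of 915 TPM over the 12 libraries (lowest 686, highest 1297) and rank 112 among all genes. Its gene lies on chromosome 7 across from Sgf29 on the other strand, and since the use of strand in counting is not given in the sources used here, the reads of that pair could be mixed.

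**Figure D1:**
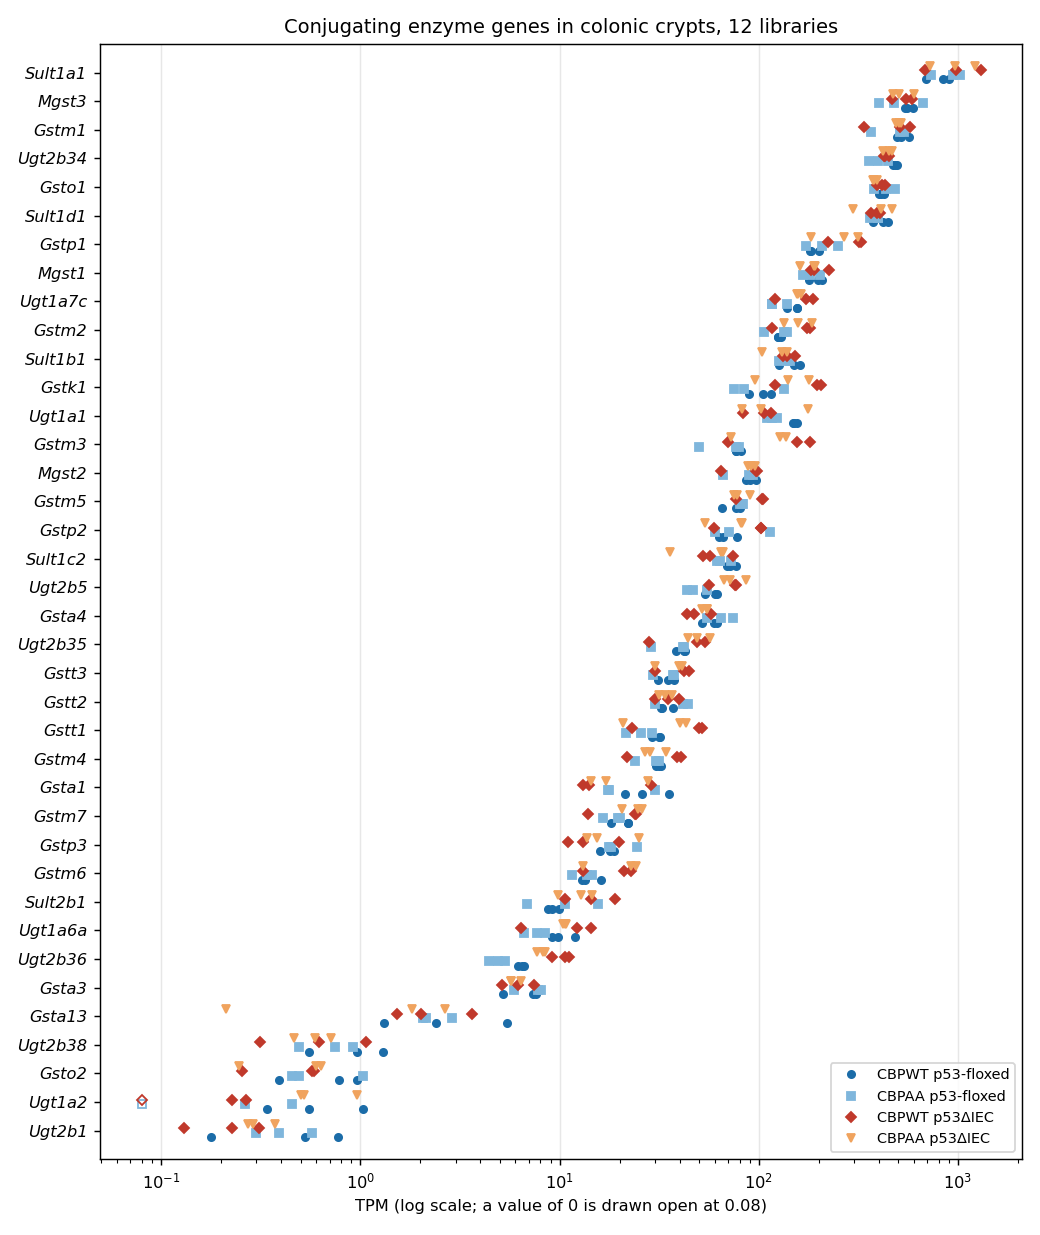
Level of the 38 conjugating enzyme genes in TPM on a log scale, with 1 point per library and gene, the colour and shape giving the group. Genes are ordered by their mean over the 12 libraries, from Sult1a1 at 915 TPM to Ugt2b1 at 0.361 TPM, and for most genes the 4 groups share 1 range.

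Mgst3 (mean 535 TPM, range 402 to 671), a membrane enzyme of the eicosanoid pathway, came next. The following ranks were held by Gstm1 (493 TPM, 338 to 572), the leading mu-class transferase, Ugt2b34 (440 TPM, 357 to 492), Gsto1 (409 TPM, 374 to 481), an omega-class enzyme that reduces dehydroascorbate, and Sult1d1 (394 TPM, 296 to 467), which sulfates catecholamines. The ranges of these neighbours overlapped, so their order is not larger than the spread between libraries. Gstp1 (236 TPM), Mgst1 (189.4 TPM), Ugt1a7c (148 TPM), Gstm2 (142 TPM), Sult1b1 (137 TPM), a thyroid hormone sulfotransferase, and Gstk1 (128 TPM), a kappa-class enzyme of mitochondria and peroxisomes, completed the 12 most abundant members. The leading member of the alpha class, Gsta4, which conjugates the lipid peroxidation product 4-hydroxynonenal, reached 56.4 TPM, and that of the theta class, Gstt3, 36.3 TPM. At the other end, Gsta13 averaged 2.34 TPM, and Ugt2b38, Gsto2, Ugt1a2 and Ugt2b1 stayed below 1 TPM. Gsto2, Ugt1a2 and Ugt2b1 did not pass the filter on low counts, which left 35 members in the tests.

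Near-identical copies set a limit on single genes of these families. Over the annotated coding transcripts (GENCODE vM21, build GRCm38), 21 of the 38 members shared no stretch of 75 bases with another gene, 4 shared less than 10% of their stretches and 13 shared 10% or more. How the counting treated reads that match several genes is not given in the sources used here, so values of these 13 are uncertain. The Ugt1a genes are the extreme case, because a set of alternative first exons on chromosome 1 is spliced to common exons at chr1:88215044-88215175, chr1:88215795-88215882 and chr1:88216138-88216357, which 9 Ugt1a genes share. A gene's own first exon, and for Ugt1a7c an extension of the last exon to position 88220002, tells these members apart, except that a Ugt1a7c transcript is also annotated with the first exon of Ugt1a6a, of whose stretches 100% were shared. The 4 members of the locus are shown across the splice junction, with the last 40 bases of the gene's own first exon in capitals and the first 20 bases of the shared exon in lower case, to show where a read can be assigned.
Ugt1a7c: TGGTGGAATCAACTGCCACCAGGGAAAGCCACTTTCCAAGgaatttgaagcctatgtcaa
Ugt1a6a: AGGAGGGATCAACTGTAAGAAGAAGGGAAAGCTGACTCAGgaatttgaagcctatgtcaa
Ugt1a2: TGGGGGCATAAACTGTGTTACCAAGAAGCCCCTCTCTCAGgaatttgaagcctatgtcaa
Ugt1a1: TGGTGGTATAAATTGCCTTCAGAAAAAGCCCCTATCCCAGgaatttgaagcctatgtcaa
Of this locus, Ugt1a7c averaged 148 TPM and Ugt1a1, the enzyme that conjugates bilirubin, 122 TPM. Ugt1a6a, a phenol UDP-glucuronosyltransferase, averaged 9.88 TPM, and Ugt1a2 0.426 TPM. The remaining Ugt1a genes gave 28 reads or fewer in all (28 for Ugt1a6b, 14 for Ugt1a5, 6 for Ugt1a9 and 1 for Ugt1a8).

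Deletion of p53 went with a higher level of Ugt2b36, a UDP-glucuronosyltransferase gene at chr5:87065927-87092555 on the minus strand. The 3 CBPWT p53-floxed libraries held 6.65, 6.45 and 6.18 TPM of it, and the 3 CBPWT p53ΔIEC libraries 9.15, 11.2 and 10.6 TPM. In CBPAA mice the values were 4.88, 5.30 and 4.41 TPM with floxed p53 and 8.47, 7.66 and 8.205 TPM after deletion. All 6 p53ΔIEC libraries thus lay above all 6 p53-floxed libraries. Averaged over both CBP genotypes, the log2 fold change was 0.66 (SE 0.12), which is 1.58-fold, with an adjusted p of 0.0117 from edgeR. The change passed in CBPWT mice (log2 fold change 0.72, SE 0.16, adjusted p = 0.0347), and in CBPAA mice it measured 0.60 (SE 0.17, adjusted p = 0.32). The test of the difference between these values gave -0.12 (SE 0.23, adjusted p = 0.853). In RNA of pooled crypt cells a higher level cannot be told apart from more cells of a type that expresses the gene.

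Ugt2b36 thus rose in the average, and Ugt2b5, a near relative 88.43% identical over 1590 coding bases, had a smaller positive value. Ugt2b36 shared no 75-base stretch with another gene, whereas 30.4% of the stretches of Ugt2b5 were shared, with Ugt2b37 or Ugt2b38. How the counting treated reads that match several genes is not given in the sources used here, so the values of Ugt2b5 are uncertain. Ugt2b36 and Ugt2b5 are shown over the first 120 coding bases, with the 14 positions at which they differ in capitals, since only such positions tell them apart.
Ugt2b36: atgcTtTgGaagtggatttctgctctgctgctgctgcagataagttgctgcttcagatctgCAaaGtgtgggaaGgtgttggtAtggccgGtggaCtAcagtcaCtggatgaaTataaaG
Ugt2b5: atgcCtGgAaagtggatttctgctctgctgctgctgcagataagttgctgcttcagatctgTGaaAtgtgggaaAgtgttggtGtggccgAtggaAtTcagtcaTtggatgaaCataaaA
Ugt2b5 stood at 59.9, 53.7 and 61.7 TPM in CBPWT p53-floxed, 43.8, 55.1 and 46.8 TPM in CBPAA p53-floxed, 55.9, 76.6 and 75.7 TPM in CBPWT p53ΔIEC and 86.6, 71.6 and 66.6 TPM in CBPAA p53ΔIEC crypts. On this scale the lowest p53ΔIEC library lay within the p53-floxed range, whereas in CPM (counts scaled to library size by TMM) all 6 lay above it. The averaged log2 fold change was 0.38 (SE 0.09) with an adjusted p of 0.0359, under the fold cutoff of 0.5. The other UDP-glucuronosyltransferases did not pass in any of the 7 comparisons.

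**Figure D2:**
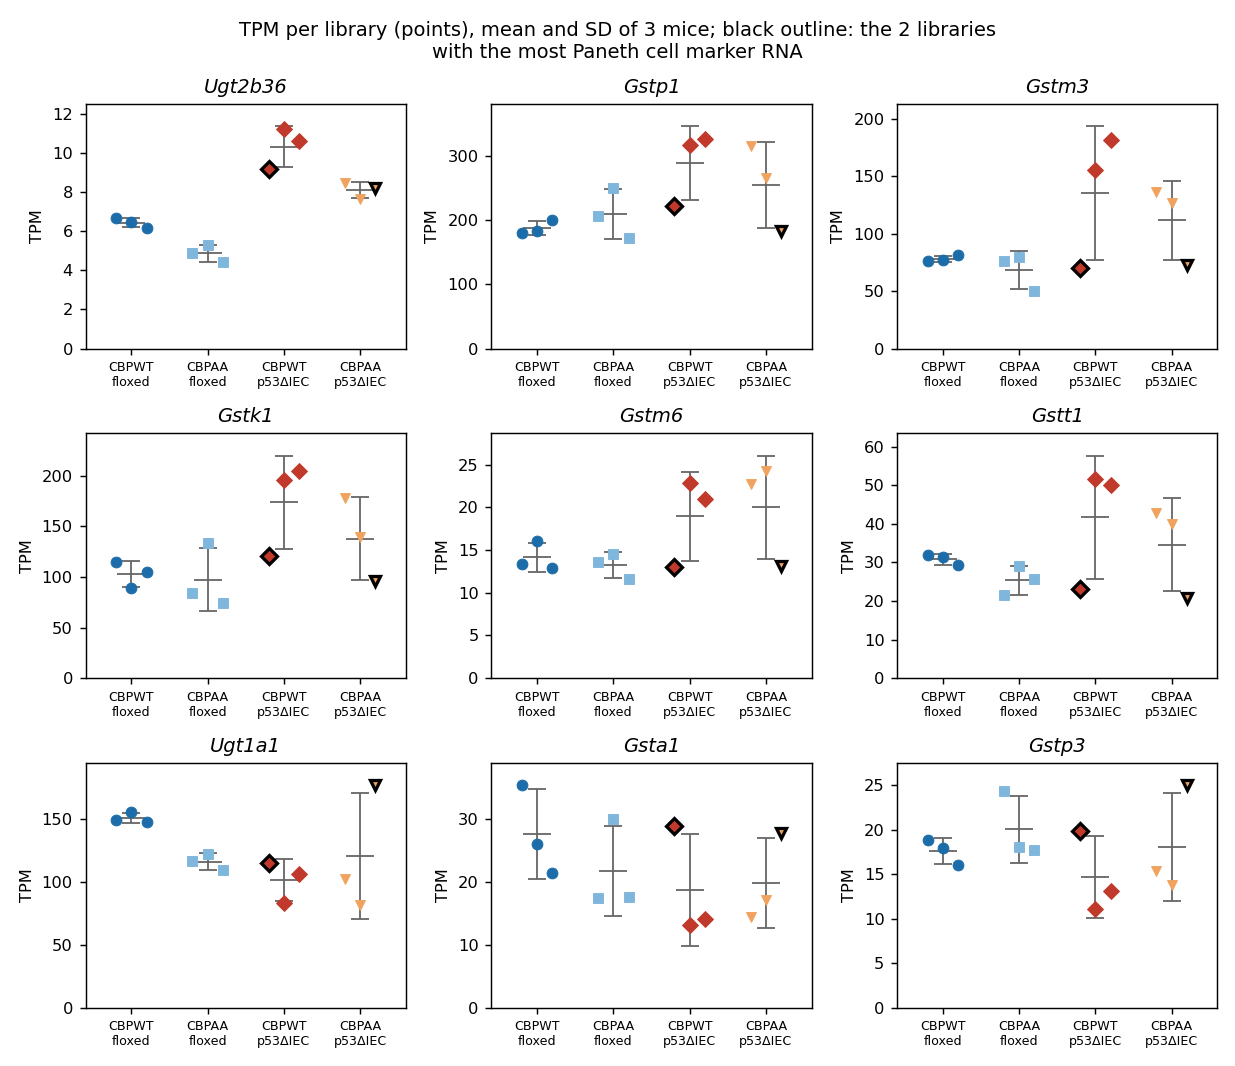
TPM of 9 conjugating enzyme genes in each library (points), with the mean and SD of the 3 mice of each group. Points with a black outline are CBPWT p53ΔIEC replicate 1 and CBPAA p53ΔIEC replicate 3, which lie among or below the p53-floxed points for Gstm3, Gstm6 and Gstt1 and above all of them for Ugt2b36.

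In CBPWT mice, 2 of the 35 members tested were called (adjusted p under 0.05 in edgeR, and log2 fold change beyond 0.5 in either direction). They were Ugt2b36 and Gstp1, both higher after p53 deletion. This is 5.71% of the members, beside 3.15% of all genes tested. At an unadjusted p under 0.05, 7 members were higher (all genes 12.6%) and none was lower (8.28%). Levels of the 2 groups, in CPM, did not overlap for 8 members that were higher (16.1% of all genes) and 1 that was lower (14.7%). The median log2 fold change was 0.09 over the members and 0.01 over all genes tested.

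Gstp1, the main pi-class glutathione transferase, lies at chr19:4035407-4037985 on the minus strand, next to Gstp2 and Gstp3. The first 120 coding bases of the 3 genes are shown, with the 23 positions at which any of them differs in capitals, because Gstp1 and Gstp2 are 98.1% identical over 630 coding bases and Gstp3 is 71.75% identical to either.
Gstp1: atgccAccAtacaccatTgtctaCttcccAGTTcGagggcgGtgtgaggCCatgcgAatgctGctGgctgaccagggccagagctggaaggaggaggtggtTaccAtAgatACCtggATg
Gstp2: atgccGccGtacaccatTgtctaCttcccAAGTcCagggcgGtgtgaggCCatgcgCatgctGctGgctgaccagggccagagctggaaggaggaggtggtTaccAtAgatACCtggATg
Gstp3: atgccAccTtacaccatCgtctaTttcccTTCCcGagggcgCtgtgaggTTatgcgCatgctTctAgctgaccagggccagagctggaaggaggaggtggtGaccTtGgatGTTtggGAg
In these 120 bases Gstp2 differed from Gstp1 at 6 positions and Gstp3 at 21. Of their 75-base stretches, 57.7% of Gstp1 and 68.2% of Gstp2 were shared with another gene, and none of Gstp3.

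Gstp1 stood at 180, 184 and 201 TPM in CBPWT p53-floxed and at 222, 318 and 327 TPM in CBPWT p53ΔIEC crypts, without overlap. The log2 fold change was 0.64 (SE 0.16, adjusted p = 0.0487 from edgeR), which is 1.56-fold. In CBPAA mice the levels were 207, 251 and 173 TPM with floxed p53 and 316, 266 and 183 TPM after deletion, and these ranges overlapped (log2 fold change 0.14, SE 0.16, adjusted p = 0.732). The difference between the CBP genotypes was -0.50 (SE 0.23) and did not pass (adjusted p = 0.482 from edgeR). Both calls in CBPWT mice were close to the threshold. Leaving out any 1 of CBPWT p53-floxed replicates 1, 2 and 3, CBPAA p53-floxed replicate 3 or CBPWT p53ΔIEC replicates 2 and 3 ended both, with an adjusted p up to 0.165 for Ugt2b36 and 0.171 for Gstp1, and leaving out CBPAA p53-floxed replicate 1 or CBPAA p53ΔIEC replicate 2 ended that of Gstp1 (adjusted p = 0.0552 and 0.0644). Gstp2 measured 0.37 (SE 0.22) in CBPWT and -0.32 (SE 0.22) in CBPAA mice, and Gstp3 -0.18 (SE 0.31) and -0.26 (SE 0.30), none of which passed.

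The mu-class genes lie side by side on chromosome 3 between positions 107895821 and 108044894. In the comparison of CBPWT mice 6 of the 7 had a positive log2 fold change and none was called, and 3 (Gstm2, Gstm3 and Gstm5) had an unadjusted p under 0.05. Of all 14610 genes tested, 7481 had a positive value there. Gstm3 (chr3:107963696-107969283, minus strand) had the largest log2 fold change of all members, 0.78 (SE 0.25, adjusted p = 0.108). It measured 76.4, 77.1 and 81.3 TPM in CBPWT p53-floxed crypts and 69.8, 155 and 181 TPM in CBPWT p53ΔIEC crypts. In CBPAA mice the values were 76.5, 79.8 and 49.8 TPM with floxed p53 and 136, 126.98 and 72.5 TPM without p53. In each p53ΔIEC group, then, a pair of libraries was well above every p53-floxed library, and the third lay inside the p53-floxed range. Those low libraries were CBPWT p53ΔIEC replicate 1 and CBPAA p53ΔIEC replicate 3, the same that held the most Paneth cell RNA.
The coding starts of Gstm3, of its closest relative Gstm1 and of Gstm6 are shown with the 29 positions at which any of them differs in capitals, as Gstm3 and Gstm1 are 89.45% identical over 654 coding bases while the levels of Gstm1 overlapped between p53ΔIEC and p53-floxed crypts in both CBP genotypes.
Gstm3: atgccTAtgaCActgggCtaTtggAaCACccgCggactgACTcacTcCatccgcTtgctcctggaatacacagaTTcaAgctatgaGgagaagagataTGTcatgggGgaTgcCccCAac
Gstm1: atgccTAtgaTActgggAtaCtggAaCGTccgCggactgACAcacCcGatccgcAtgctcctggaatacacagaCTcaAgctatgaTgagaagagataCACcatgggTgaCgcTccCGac
Gstm6: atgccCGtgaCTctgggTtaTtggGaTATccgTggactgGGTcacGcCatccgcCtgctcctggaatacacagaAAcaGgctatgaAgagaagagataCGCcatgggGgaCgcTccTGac
Of their 75-base stretches, 21.6% of Gstm3 and 14.8% of Gstm1 were shared with another gene.

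Gstk1 (chr6:42245935-42250447) was highest in the same 4 p53ΔIEC libraries. Its levels were 115, 88.9 and 105 TPM in CBPWT p53-floxed, 84.1, 133 and 74.7 TPM in CBPAA p53-floxed, 121, 196 and 205 TPM in CBPWT p53ΔIEC and 178, 140 and 95.7 TPM in CBPAA p53ΔIEC crypts. The log2 fold change was 0.77 (SE 0.24, adjusted p = 0.0946) in CBPWT and 0.36 (SE 0.24, adjusted p = 0.529) in CBPAA mice. Sult2b1, which sulfates cholesterol and other hydroxysteroids, had a log2 fold change of 0.74 (SE 0.31, adjusted p = 0.2) in CBPWT mice and 0.04 (SE 0.31) in CBPAA mice. Without CBPWT p53ΔIEC replicate 1 the value in CBPWT mice was 0.33. It overlaps Lmtk3 on the other strand.

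The alpha-class genes had the opposite sign. All 4 (Gsta1, Gsta3, Gsta4 and Gsta13) had a negative log2 fold change in both p53 comparisons, with medians of -0.25 in CBPWT and -0.42 in CBPAA mice, and none passed. Of all 14610 genes tested, 7129 had a negative value in CBPWT and 6988 in CBPAA mice. For Gsta4 the log2 fold change was -0.40 (SE 0.17, adjusted p = 0.381) in CBPAA mice. Gsta1 and Gsta13 are 99.7% identical over 669 coding bases, and 86.3% and 89.1% of their 75-base stretches were shared, so their counts of 1425 and 141 reads over the 12 libraries may not be correctly divided between them.

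Among the UDP-glucuronosyltransferases of the Ugt1a locus, Ugt1a1 had the lowest log2 fold change of the members tested in CBPWT mice, -0.51 (SE 0.27, adjusted p = 0.297), and was the single member whose CBPWT p53ΔIEC libraries all lay below those of CBPWT p53-floxed mice. Its levels were 150, 156 and 148 TPM in CBPWT p53-floxed and 116, 83.4 and 106 TPM in CBPWT p53ΔIEC crypts. The CBPAA p53-floxed libraries, at 117, 123 and 110 TPM, also lay below CBPWT p53-floxed, and the CBPAA p53ΔIEC libraries spread from 81.9 to 177 TPM. Ugt1a6a and Ugt1a7c measured 0.09 (SE 0.17) and 0.12 (SE 0.10) in CBPWT mice. The Mgst enzymes, with log2 fold changes between -0.05 and 0.10, and Sult1a1, Sult1b1, Sult1c2 and Sult1d1, with values between -0.21 and 0.28, did not pass either.

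**Figure D3:**
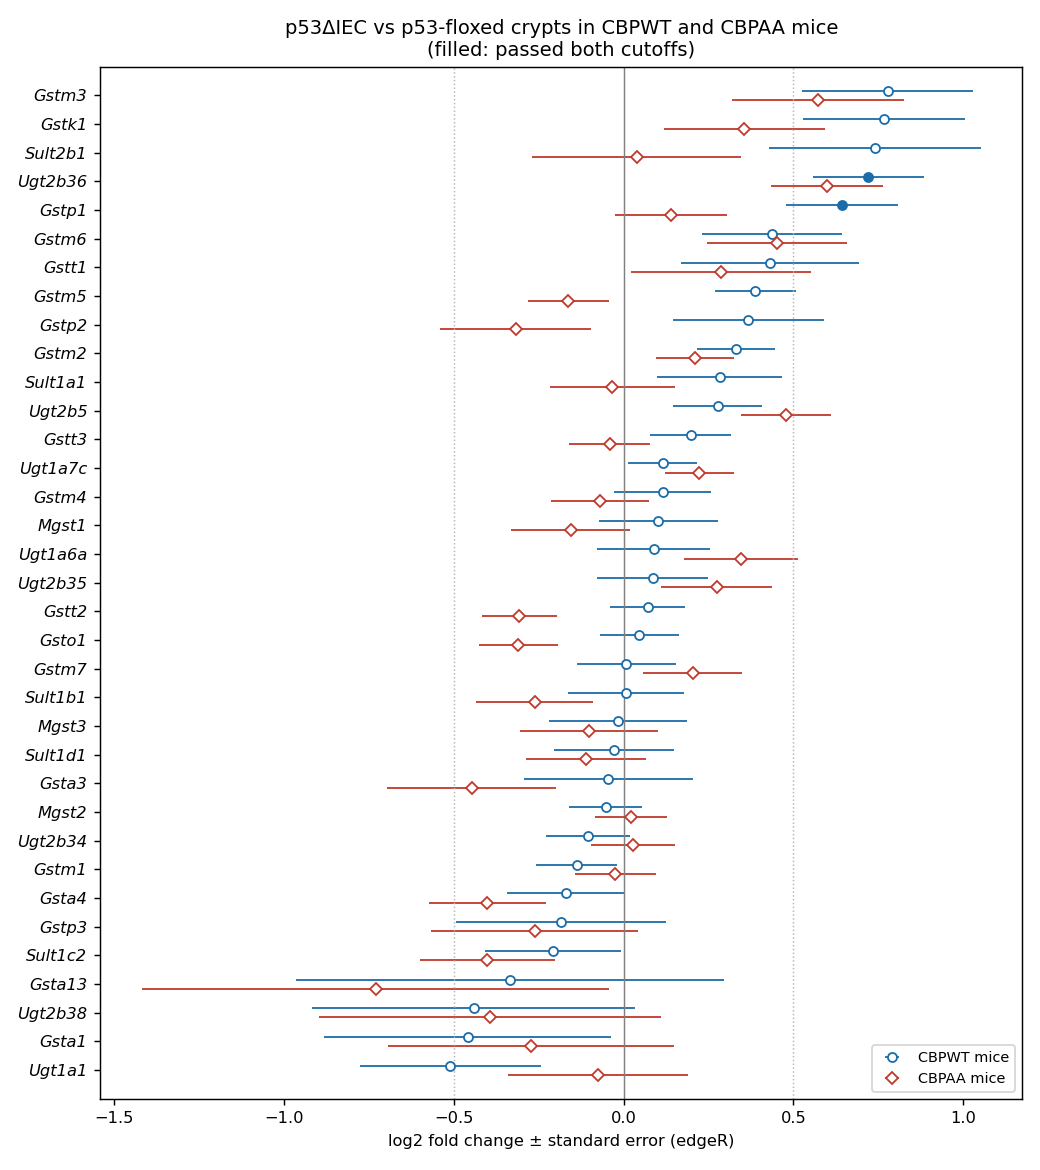
Log2 fold change with its standard error (edgeR) of the 35 members tested, p53ΔIEC against p53-floxed crypts, in CBPWT mice (circles) and CBPAA mice (diamonds), ordered by the value in CBPWT mice. Filled symbols passed both cutoffs, which are Ugt2b36 and Gstp1 in CBPWT mice, and the dotted lines mark a log2 fold change of 0.5 in either direction.

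In CBPAA mice no member was called after p53 deletion by edgeR or by DESeq2, and 0.0274% of all genes were called. At an unadjusted p under 0.05 in edgeR, 5 members were higher (all genes 7.19%) and 3 lower (5.41%). The higher ones were Ugt2b36, Gstm3 at 0.57 (SE 0.25), Ugt2b5 at 0.48 (SE 0.13), Gstm6 at 0.45 (SE 0.21) and Ugt1a7c at 0.22 (SE 0.10), and the lower ones were Gsta4, Gsto1 at -0.31 (SE 0.12) and Gstt2 at -0.31 (SE 0.11). Levels did not overlap for 4 that were higher (7.86% of all genes) and 2 that were lower (7.18%). The smallest adjusted p was 0.32. Gstm6 and Gstt2, like Gstm5 and Gstt1 where they are named, fall outside the rule for named genes and were chosen after their values were seen.

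Averaged over both CBP genotypes, 1 of the 35 members was called after p53 deletion, Ugt2b36, against 3.5% of all genes. At an unadjusted p under 0.05, 8 were higher (all genes 13.2%) and 1, Gsta4, was lower (8.73%). Levels of all 6 p53ΔIEC libraries lay above all 6 p53-floxed libraries for 2 members, Ugt2b36 and Ugt2b5 (1.03% of all genes), and below them for none (0.726%). Gstm3 (0.67, SE 0.18, adjusted p = 0.053), Gstp1 (0.39, SE 0.12, adjusted p = 0.0705) and Gstk1 (0.56, SE 0.17, adjusted p = 0.0777) missed the threshold. The members' median log2 fold change was 0.02, against 0.01 over all genes.

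The CBP mutation gave no called member in either p53 state. In p53-floxed crypts, where 0% of all genes were called by edgeR, 2 members had an unadjusted p under 0.05 (8.04% of all genes), Gstt2 at a log2 fold change of 0.30 (SE 0.11) and Gstm5 at 0.28 (SE 0.12). All 8 UDP-glucuronosyltransferases tested had a negative value in that comparison, with a median of -0.20. They ran from -0.32 for Ugt1a6a (SE 0.17, adjusted p = 0.623) to a value that rounds to 0 for Ugt2b35. Over all genes tested, 7012 of 14610 were negative, with a median of 0.01. The smallest unadjusted p of the 8 was 0.078 from edgeR. The Ugt1a genes among them share exons, so the 8 values are not independent. The number in the library names also separated the CBP genotypes in p53-floxed crypts, and its part was not tested. In CPM, levels did not overlap for 6 members (19.4% of all genes), 3 of them UDP-glucuronosyltransferases that were lower in CBPAA mice (Ugt1a1, Ugt1a6a and Ugt2b36) and 3 glutathione transferases that were higher (Gstp1, Gstp3 and Gstt2). In p53ΔIEC crypts 0.00684% of all genes were called. The members with an unadjusted p under 0.05 there were Ugt2b36 at -0.39 (SE 0.16) and Gstm5 at -0.27 (SE 0.12), both lower in CBPAA mice (3.57% of all genes), and they were also the 2 whose levels did not overlap (9.26%). Of the 35 members 26 had a negative log2 fold change there, with a median of -0.09 against -0.01 over all genes.

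Averaged over the p53 states, 0.00684% of all genes were called between the CBP genotypes and no member was. Ugt2b36 was the member with an unadjusted p under 0.05 (2.57% of all genes), at -0.33 (SE 0.12, adjusted p = 1). The test of whether the p53 effect depended on the CBP genotype called 0.00684% of all genes and no member. An unadjusted p under 0.05 (10.3% of all genes) was found for Gstm5 (-0.55, SE 0.17), Gstp2 (-0.69, SE 0.31), Gstp1, Gstt2 (-0.38, SE 0.16) and Gsto1 (-0.36, SE 0.16), all glutathione transferases whose log2 fold change after p53 deletion was smaller in CBPAA than in CBPWT mice, each with an adjusted p of 0.482. DESeq2 called no member in these 4 comparisons.

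Without CBPWT p53ΔIEC replicate 1 and CBPAA p53ΔIEC replicate 3, a choice made after the data were seen, more members passed after p53 deletion. The 4 p53ΔIEC libraries kept are those whose name carries a number above that of every p53-floxed library, so in this fit p53 deletion and whatever that number stands for cannot be told apart. In the average over CBP genotypes 9 of 36 members tested were called (25%), where 11.4% of all genes were. The counts were 9 in CBPWT mice (9.23% of all genes) and 3 in CBPAA mice (8.12%), the latter being Gstm3, Gstm6 and Ugt2b5. Higher in the average were Gstm3 (0.90, SE 0.09, adjusted p = 1.56e-05 from edgeR), Gstk1 (0.71, SE 0.16), Ugt2b36 (0.62, SE 0.13), Gstm6 (0.60, SE 0.11), Gstt1 (0.58, SE 0.11) and Gstp1 (0.50, SE 0.09). They stand for the mu, kappa, theta and pi classes of glutathione transferase and for 1 UDP-glucuronosyltransferase. Lower were Gsta1 (-0.87, SE 0.21, adjusted p = 0.00877), Ugt1a1 (-0.64, SE 0.09, adjusted p = 0.000178) and Gstp3 (-0.62, SE 0.13, adjusted p = 0.00438). Of the other alpha-class genes, Gsta13 measured -0.90 (SE 0.51, adjusted p = 0.222), Gsta3 -0.44 (SE 0.16, adjusted p = 0.0659) and Gsta4 -0.33 (SE 0.13, adjusted p = 0.0928), which did not pass.

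On the CPM scale, levels of the 4 remaining p53ΔIEC libraries lay above all 6 p53-floxed libraries for 6 members (16.7%, and 10.2% of all genes), which were Gstm2, Gstm3, Gstm6, Gstt1, Ugt2b36 and Ugt2b5. They lay below for 3 (8.33%, and 8.19% of all genes), Gsta1, Gstp3 and Ugt1a1. For 5 of these 9 genes (Gsta1, Gstm2, Gstm3, Gstm6 and Gstt1) the 2 libraries left out fell inside the p53-floxed range of CPM, and for Ugt1a1 1 did. For Ugt2b36 and Ugt2b5 both lay above that range, as the 4 kept did. For Gstp3 both lay above the range, on the opposite side from the 4 kept, and for Ugt1a1 the other 1, CBPAA p53ΔIEC replicate 3, did too. With all 12 libraries the average for Gstp3 was -0.22 (SE 0.22). Gstt1, a theta-class enzyme, shows the split. It stood at 51.7, 50.1, 42.9 and 40.1 TPM in the 4 p53ΔIEC libraries kept, at 23.1 and 20.7 TPM in those left out and between 21.4 and 32 TPM in p53-floxed crypts. Gstm6 was at 22.8, 21, 22.7 and 24.3 TPM in the 4 kept, at 13.1 TPM in each of those left out and between 11.6 and 16 TPM in p53-floxed crypts. In the other direction, Gsta1 was between 13.1 and 17.1 TPM in the 4 kept, at 28.8 and 27.8 TPM in those left out and between 17.4 and 35.3 TPM with floxed p53.

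**Figure D4:**
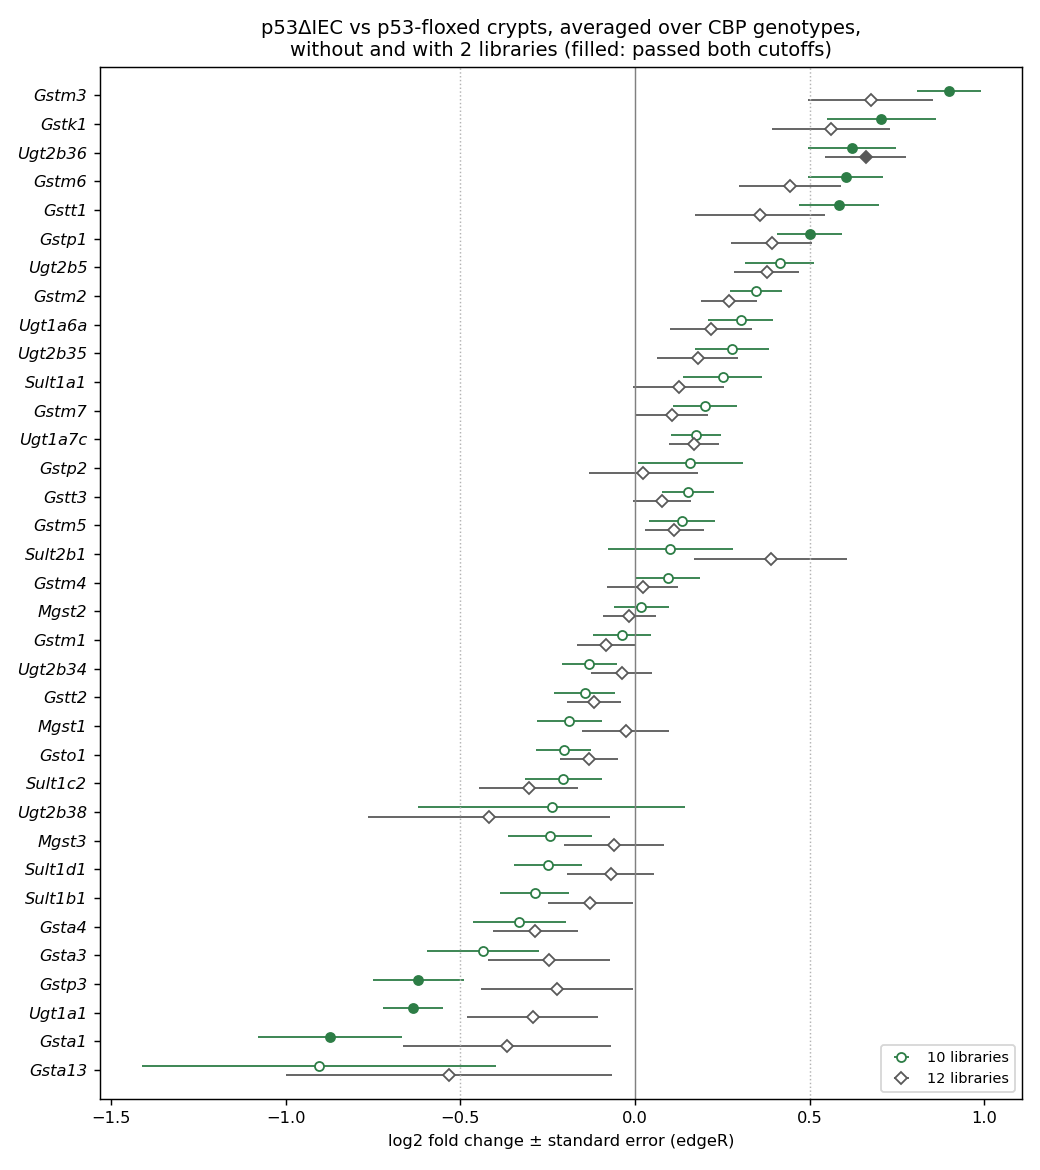
Log2 fold change with its standard error (edgeR), p53ΔIEC against p53-floxed crypts averaged over CBP genotypes, from 10 libraries without those 2 with the most Paneth cell marker RNA (circles) and from all 12 (diamonds). Filled symbols passed both cutoffs, 9 genes from 10 libraries and Ugt2b36 alone from 12.

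The same libraries differed in proliferation markers. Mki67, a marker of cycling cells, stood at 107, 95.5, 75.7 and 81.9 TPM in the 4 p53ΔIEC libraries kept, at 30.6 and 25.7 TPM in those left out and between 12.9 and 31.2 TPM in the p53-floxed libraries. In CPM, 1 of the 2 left out fell inside the p53-floxed range for each of the 6 cycling markers listed. Those 6 summed to 181 TPM in CBPWT p53ΔIEC replicate 1 and 136 TPM in CBPAA p53ΔIEC replicate 3. The p53-floxed sums ran from 113 to 163 TPM. The third highest Paneth cell sum belonged to CBPAA p53ΔIEC replicate 1, which for the conjugating enzyme genes set apart in the libraries kept and for Mki67 lay with those libraries. A fit without this library and CBPAA p53-floxed replicate 2 as well kept only replicate 2 of CBPAA p53ΔIEC. Its counts of called members are therefore listed only among the processing alternatives below, and no conclusion is drawn from them. Whether cell composition, the part of the gut sampled, the libraries' origin or the p53 state set these levels was not tested.

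Of the 47 partner genes tested, which make the cofactors, export the conjugates, act before conjugation or regulate the pathway, Ephx1 had the smallest adjusted p in the p53 average. This gene for microsomal epoxide hydrolase, which opens epoxides that glutathione transferases can also take, stood at 20, 19.4 and 19.8 TPM in CBPWT p53-floxed and at 18.9, 21.9 and 23.2 TPM in CBPAA p53-floxed crypts. After p53 deletion it was at 3.66, 5.82 and 7.51 TPM in CBPWT and at 6.28, 7.99 and 4.42 TPM in CBPAA crypts, all 6 below every p53-floxed library. Ephx1 fell by 1.86 on the log2 scale (SE 0.15, adjusted p = 0.000125 from edgeR) in the average, and passed in each CBP genotype. It fell by 1.71 without the 2 libraries named above.

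In CBPWT mice 3 of the 47 partner genes rose and 2 fell, where 3.15% of all genes were called. The rising ones were Gsr, glutathione reductase (log2 fold change 0.64, SE 0.11, adjusted p = 0.0225), 1 of 8 genes for glutathione supply, and, out of 7 for the supply of activated sulfate, Papss2, a PAPS synthase (0.63, SE 0.16, adjusted p = 0.0441), and the sulfate transporter gene Slc26a1 (2.19, SE 0.48, adjusted p = 0.034). Slc26a1 was low, between 0.226 and 3.42 TPM over the 12 libraries. Ephx1 and Ppara, a nuclear receptor of fatty acids (-0.88, SE 0.22, adjusted p = 0.047), fell. No gene among 3 for UDP-glucuronate supply or 7 for conjugate export was called. In CBPAA mice, where 0.0274% of all genes were called, Ephx1 was the single partner gene, and in the average (3.5% of all genes) Slc26a1 (1.32, SE 0.32, adjusted p = 0.0354) was called besides it. The CBP comparisons gave none in either p53 state.

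Without the 2 libraries named above, a choice made after the data were seen, the partner genes called with all 12 were called again. Nr1i3 and Ephx2 were added. Those called in CBPWT mice were Ephx1, Gsr, Papss2, Slc26a1, Ppara and Nr1i3, where 9.23% of all genes were called. In CBPAA mice they were Ephx1, Ephx2 and Nr1i3, where 8.12% of all genes were. Nr1i3 encodes the constitutive androstane receptor, a nuclear receptor that induces conjugating enzymes. It was at 2.12, 3.01 and 2.88 TPM in CBPWT p53-floxed, at 5.24, 5.04 and 2.67 TPM in CBPAA p53-floxed, at 3.33, 1.21 and 1.55 TPM in CBPWT p53ΔIEC and at 1.47, 1.40 and 5.38 TPM in CBPAA p53ΔIEC crypts. The 4 p53ΔIEC libraries kept thus lay below all 6 p53-floxed libraries, and the 2 left out did not. With all 12 libraries the average was -0.52 (SE 0.40, adjusted p = 0.475), and without the 2 it was -1.40 (SE 0.19, adjusted p = 0.00019 from edgeR), with -1.06 (SE 0.27, adjusted p = 0.022) in CBPWT and -1.73 (SE 0.27, adjusted p = 0.0015) in CBPAA mice. Ephx2, soluble epoxide hydrolase, was called in CBPAA mice only (-0.52, SE 0.15, adjusted p = 0.0415), and its average of -0.35 (SE 0.10) did not pass the fold threshold.

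Promoter windows from RefSeq (250 bases before to 50 after the start, GRCm38.p6) were found for 35 of the 38 members, 45 windows in all. The motif TGACNNNGC, the core of the NRF2 response element, was searched on both strands and was present in 4 of the 45 windows (8.89%), against 12.4% of 32851 windows of all genes. GCGTG, the core bound by the aryl hydrocarbon receptor, was present in 11 (24.4%), against 32.4%. Both shares among the members were below those over all promoters, and no test was made. The 4 windows with TGACNNNGC are shown because none of their genes was called in any of the 7 comparisons, with the motif (or its reverse complement, for Mgst1) in capitals and 10 bases on either side.
Gsta3, chr1:21240454-21240482, plus strand: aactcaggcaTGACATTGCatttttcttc
Gstm5, chr3:107895802-107895830, plus strand: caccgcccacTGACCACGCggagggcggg
Gstm7, chr3:107931725-107931753, minus strand: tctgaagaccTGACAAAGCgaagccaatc
Mgst1, chr6:138140461-138140489, plus strand: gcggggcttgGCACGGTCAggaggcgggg
A match in such a window is a description of its letters, and the data hold no measurement of binding.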

How the data were processed

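Polyadenylated RNA of colonic crypts from 12 mice was sequenced (TruSeq stranded libraries, per the labels). The submitters' processing notes name fastp 0.20.0, FastQC 0.11.9, HISAT2 2.1.0, SAMtools 1.9, featureCounts of Subread 2.0.1 and the build GRCm38. The gene annotation and the use of strand are not given in the sources used here. The authors deposited 1 table with raw counts per gene and library and, beside them, TPM per gene and library. It also holds log2 fold changes, p-values and adjusted p-values of 5 comparisons made by the authors, which were not used. Groups were taken from the labels. Genes were filtered with filterByExpr of edgeR 4.0.16 under R 4.3.3 (min.count 10), which left 14610, scaled by TMM and fitted by its robust quasi-likelihood method with 1 factor of 4 groups over 12 libraries. P-values were adjusted over all of them by the Benjamini-Hochberg method, and a gene was called at an adjusted p under 0.05 if its log2 fold change also exceeded 0.5 in either direction. The standard error is the log2 fold change over the square root of the F statistic. TPM is given for levels, and the overlap of groups was judged on CPM (counts scaled to library size by TMM).

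Members, lists and tests were chosen with earlier results of these data known. Genes were named if they were called in any of 7 comparisons, were among the 12 with the highest mean TPM, had 1 of the 3 highest or 3 lowest log2 fold changes in a comparison of 2 groups or in the p53 average, or led their family. Exceptions are marked. Alternatives were DESeq2 1.42.0, its size factors in edgeR, other filters on low counts, the adjusted p alone, the replicate number as a block, the 2 groups compared alone, and each library left out in turn. The fit was tested on simulated counts. Mice were not treated as paired by replicate number. Of 18 pairs of same-numbered libraries 3 correlated above 0.1 (range -0.526 to 0.548). With 3 libraries per group this check cannot exclude a pairing. Plots were made in Python 3.11.15 (matplotlib 3.10.9).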

Additional observations from a re-analysis of the deposited data

How the results depend on the processing

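Members were followed in a comparison if the rule named them and their unadjusted p there was under 0.05 in the main edgeR fit. None of their log2 fold changes changed sign under any alternative, which that choice made likely beforehand. Other members were not followed, and the cause of each changed count was not tested. The member counts below stand without the share of all genes called under the same alternative. Whether the members changed more than all genes did was not tested. Without the 2 libraries with the most Paneth cell marker RNA, the share of all genes called rose as well. It went from 3.15% to 9.23% in CBPWT mice, from 0.0274% to 8.12% in CBPAA mice and from 3.5% to 11.4% in the average. After p53 deletion in CBPWT mice (2 members called), 1 was called with no filter on low counts, 0 with the replicate block, 4 with DESeq2, and between 0 and 4 with 1 library left out. Averaged over CBP genotypes (1 called), 2 were called by the adjusted p alone, 2 with at least 10 counts in every library, 3 with DESeq2, and between 1 and 5 with 1 library left out (2 without CBPAA p53-floxed replicate 2, 3 without CBPWT p53ΔIEC replicate 1 and 5 without CBPAA p53ΔIEC replicate 3). Without the 2 libraries with the most Paneth cell marker RNA 9, 3 and 9 members were called in CBPWT mice, in CBPAA mice and in the average, and without the 4 libraries above 500 TPM of these markers 9, 6 and 9 were, both choices being made after seeing the data. Ugt2b36 in the average was called under every alternative run, with an adjusted p between 0.000201 and 0.0482. The fit without the 4 libraries above 500 TPM kept only replicate 2 of CBPAA p53ΔIEC. Its counts in CBPAA mice and in the average therefore rest on 1 library of that group, and no conclusion is drawn from them. The block is given as a fit only, since the labels do not say that the numbers pair mice. The other comparisons gave 0 called members under every alternative run. Gsto2, Ugt2b1 and Ugt1a2, with 61 to 92 reads in all, did not pass the filter in the fit over 12 libraries.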
